A study of Mus musculus with 6 samples.

Results

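Major histocompatibility complex (MHC) class II genes were compared in adult adrenal glands of female C57Bl/6J mice after developmental treatment with CGP 39551 (CGP) and in control mice. CGP 39551 blocks the NMDA receptor (N-methyl-D-aspartate receptor), a glutamate-gated ion channel. In the CGP group the mothers received the drug by mouth at 5 mg/kg body weight while pregnant and up to the end of weaning, and the offspring were killed at 21 weeks of age. Mice of the control group were of the same age, sex and strain. Each group had 3 arrays of total adrenal RNA pooled from 18 mice, 6 arrays in all. The sample descriptions leave unstated if the replicate arrays shared 1 pool, so the p-values cover the spread between arrays, which may be purely technical, and not the spread between mice. The class II set had 10 genes, taken by gene symbol: H2-Aa, H2-Ab1, H2-Eb1, H2-DMa, H2-DMb1, H2-DMb2, H2-Oa, H2-Ob, Cd74 and Ciita. Of these 10 genes, 8 had a probe set annotated with that symbol alone, 1 probe set each, and all 8 were among the 14727 genes tested. H2-DMb1 and H2-DMb2 shared a probe set that carries both symbols, so neither gene was measured on its own.

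MHC class II molecules present peptides from the endosomes to CD4+ T cells, and are made mainly by dendritic cells, macrophages and B cells. An alpha and a beta chain pair in the endoplasmic reticulum with the invariant chain (Cd74), which blocks the groove until endosomal proteases cut it down to a short peptide. The H2-DM dimer then exchanges that peptide for antigen, and the H2-O dimer restrains H2-DM. Ciita is the co-activator that class II transcription depends on. It does not bind DNA, but sits on the RFX, CREB and NF-Y factors that occupy a conserved promoter module, in which the X box precedes the Y box, a CCAAT box often read as ATTGG on the coding strand. In the human adrenal, cortical cells of the zona reticularis are known to carry class II molecules besides the macrophages of the gland.

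Letters of the promoter module were looked for in the members that had a promoter sequence, and stretches that hold ATTGG are shown for 6 genes. Along mouse chromosome 17 the members lie in the order H2-Oa, H2-DMa, H2-DMb2, H2-DMb1, H2-Ob, H2-Ab1, H2-Aa and H2-Eb1, with Psmb9, Tap1, Psmb8 and Tap2, genes of the class I pathway, between H2-DMb1 and H2-Ob. Ciita and Cd74 lie on other chromosomes. RefSeq promoters of build GRCm38.p6, each of 250 bases before to 50 after an annotated start, were at hand for 7 of the 10 genes, 8 promoters in all, and H2-Ab1, Cd74 and Ciita had no entry. The letters CCAAT or ATTGG stood in 7 of the 8 promoters, against 37.4% of all 32851 promoters. The longer form CTGATTGG (or CCAATCAG on the other strand) stood in 3 of the 8, H2-Aa, H2-Eb1 and H2-Oa, against 4.1% of all. In 6 genes ATTGG began 43 to 90 bases before the start. These stretches are given 5′ to 3′ on the strand of the gene, with ATTGG in capitals and also GCAAC, letters of the X box, where they stand up to 40 bases before it. The GCAAC letters were picked after the sequences had been read.
H2-Aa, chr17:34287855-34287916, minus strand: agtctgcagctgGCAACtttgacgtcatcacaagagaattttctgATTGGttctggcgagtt
H2-Eb1, chr17:34305763-34305824, plus strand: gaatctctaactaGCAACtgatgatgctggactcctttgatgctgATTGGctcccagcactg
H2-Ob, chr17:34238803-34238864, plus strand: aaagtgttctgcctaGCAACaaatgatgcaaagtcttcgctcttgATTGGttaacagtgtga
H2-Oa, chr17:34092291-34092352, plus strand: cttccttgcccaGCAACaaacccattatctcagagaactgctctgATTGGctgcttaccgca
H2-DMb1, chr17:34153085-34153146, plus strand: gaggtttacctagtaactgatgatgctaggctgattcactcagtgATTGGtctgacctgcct
H2-DMb2, chr17:34145114-34145175, plus strand: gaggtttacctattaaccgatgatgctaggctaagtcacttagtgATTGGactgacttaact

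GCAAC ahead of ATTGG within 40 bases was found for H2-Aa, H2-Eb1, H2-Ob and H2-Oa (4 of the 8 promoters), against 0.758% of all promoters. Of the promoters of H2-DMa, 1 had no ATTGG and the other had it 198 bases before the start. A match of letters is a description of these promoters and not evidence of a bound factor, and letters outside the promoters were not searched.

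None of the 8 class II genes measured on their own passed the test between the CGP and control adrenals. The log2 fold change (CGP minus control, 0 for no difference) ran from -0.02 for H2-Oa to 0.10 for H2-Ab1, and the groups overlapped for all 8. With limma, 0 of 8 passed an adjusted p under 0.05 (adjusted p = 0.392 to 0.971, Benjamini-Hochberg over 16034 probe sets), and 0 of 8 had an unadjusted p under 0.05. Over all tested probe sets 3.53% passed the adjusted threshold, 19.3% had an unadjusted p under 0.05, and in 26.3% the groups did not overlap. The median log2 fold change was 0.03 over the 8 genes and -0.01 over all tested. Of the 8 genes 6 had a value above 0, against 45.6% of all tested probe sets. The 95% intervals lay between -0.22 and 0.27 for all 8 genes, and thus within 1.3-fold in both directions. Intervals of this width come from arrays of pooled RNA and do not cover differences between mice.

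**Figure D1:**
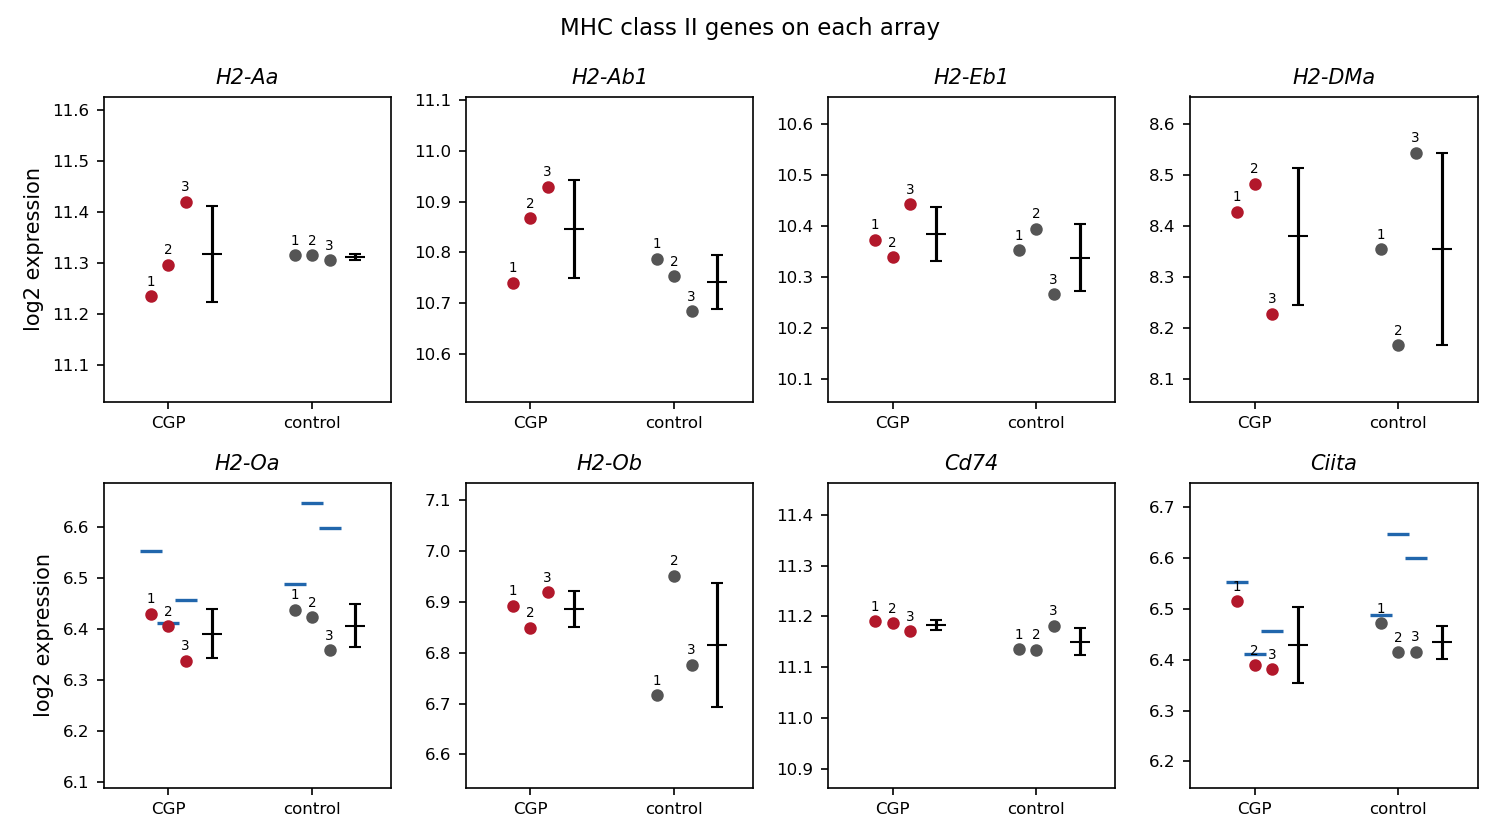
Deposited log2 expression (vertical axis, the same span of values in every panel) of the 8 class II genes on each array, CGP in red and control in grey with the array number beside each point, and the mean and SD over 3 arrays in black. The groups overlap in every panel, and H2-Oa and Ciita lie under the background of their own array (blue bars) on all 6 arrays.

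The classical class II chains were well above background on all arrays. Probe sets of sensory receptor genes (Olfr, Vmn1r, Vmn2r and Taar families, 128 in all) stood for genes that the adrenal does not express, and their 75th percentile on an array served as its background, which was 6.41 to 6.55 (log2) on the CGP arrays and 6.49 to 6.65 on the control arrays. H2-Aa (probe set 10450154), the alpha chain of the I-A molecule, read 11.23, 11.30 and 11.42 on CGP arrays 1 to 3, against 11.31, 11.32 and 11.31 on control arrays 1 to 3. The CGP arrays thus lay on both sides of the controls, which spanned a much narrower range (11.32 ± 0.09 in CGP and 11.31 ± 0.01 in control, mean log2 ± SD, n = 3 arrays each). The difference was 0.01 (SE 0.06, 95% interval -0.13 to 0.14, limma adjusted p = 0.971).

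H2-Ab1 (probe set 10444291), the beta chain that pairs with H2-Aa, had the highest fold change of the set. It read 10.74, 10.87 and 10.93 on the CGP arrays, against 10.79, 10.75 and 10.68 on the control arrays. CGP arrays 2 and 3 lay above all controls and CGP array 1 between control arrays 2 and 3. The difference of 0.10 (SE 0.06, 95% interval -0.04 to 0.25) corresponds to 1.07-fold and was not called (limma adjusted p = 0.392). Without CGP array 1 it was 0.16 (adjusted p = 0.235), and without CGP array 3 it was 0.06 (adjusted p = 0.710).

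H2-Eb1 (probe set 10444298) encodes the beta chain of the I-E molecule, whose alpha chain gene is defective in C57BL mice, so that this transcript has no partner chain there. It read 10.37, 10.34 and 10.44 on the CGP arrays, against 10.35, 10.39 and 10.27 on the control arrays. Values of the groups were interleaved, with a difference of 0.05 (SE 0.05, limma adjusted p = 0.664). CGP array 3 gave the highest value for H2-Aa, H2-Ab1 and H2-Eb1 alike, and control array 3 the lowest for H2-Ab1 and H2-Eb1.

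Cd74 (probe set 10456005), the invariant chain that escorts class II dimers to the endosome, varied least among the detected members. It read 11.19, 11.19 and 11.17 on the CGP arrays, against 11.14, 11.13 and 11.18 on the control arrays, a range of 0.06 over all 6. Control array 3 lay above CGP array 3, so the groups overlapped. The difference was 0.03 (SE 0.04, 95% interval -0.07 to 0.13, limma adjusted p = 0.714).

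H2-DMa (probe set 10444229), the alpha chain of the dimer that loads antigenic peptide, read 8.43, 8.48 and 8.23 on the CGP arrays, against 8.35, 8.17 and 8.54 on the control arrays. Control arrays 2 and 3 were the lowest and the highest of the 6, with a range of 0.38. The difference was 0.03 (SE 0.10, 95% interval -0.22 to 0.27, limma adjusted p = 0.917), and its interval was the widest of the 8 genes. The probe set shared by the DM beta chain genes H2-DMb1 and H2-DMb2 was outside the test and read 7.42, 7.48 and 7.31 on the CGP arrays and 7.33, 7.43 and 7.45 on the control arrays. Its group means were both 7.40, for whichever mixture of the pair it measures.

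H2-Oa (probe set 10444223) and H2-Ob (probe set 10444284) form the dimer that inhibits H2-DM, and are known mainly from B cells and some dendritic cells. H2-Ob was only slightly above background, at 6.89, 6.85 and 6.92 on the CGP arrays, against 6.72, 6.95 and 6.78 on the control arrays. Control array 2 lay above the CGP arrays and the other controls below them (difference 0.07, SE 0.07, limma adjusted p = 0.591). H2-Oa read 6.43, 6.41 and 6.34 on the CGP arrays, against 6.44, 6.42 and 6.36 on the control arrays, and was under background on all 6. Ciita (probe set 10433507), the co-activator of the whole set, was likewise under background on all 6 arrays, at 6.51, 6.39 and 6.38 in the CGP group and 6.47, 6.41 and 6.42 in the control group. For H2-Oa (-0.02, limma adjusted p = 0.887) and Ciita (-0.01, limma adjusted p = 0.967) the test cannot show whether the transcript differed, since neither was distinguished from background. The intervals are therefore informative for H2-Aa, H2-Ab1, H2-Eb1, Cd74 and H2-DMa. They are less so for H2-Ob, whose signal was close to background.

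**Figure D2:**
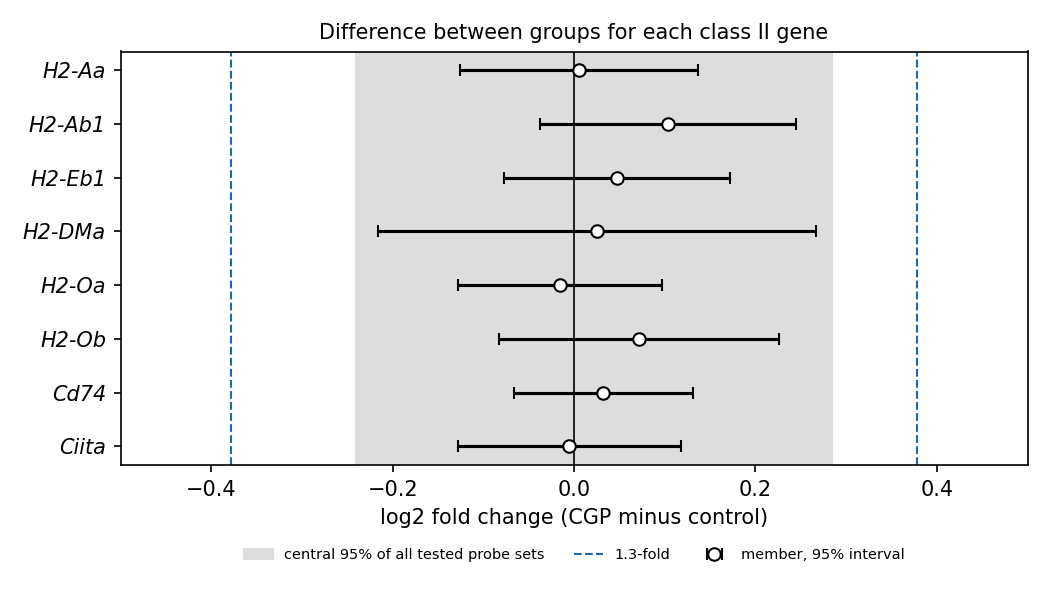
Log2 fold change of each class II gene (horizontal axis, CGP minus control) with its 95% interval from limma, over the central 95% of all 16034 tested probe sets (grey, -0.24 to 0.28) and 1.3-fold in each direction (dashed). All 8 intervals include 0 and stay inside the dashed lines, with H2-DMa widest.

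Averaged over the 6 detected genes, the log2 level was 9.81, 9.84 and 9.85 on the CGP arrays, against 9.78, 9.79 and 9.79 on the control arrays. These means did not overlap although each gene did, and differed by far less than 1.3-fold. Over all tested probe sets the means were 8.42, 8.42 and 8.41 on the CGP arrays and 8.42, 8.41 and 8.44 on the control arrays. For the 4 genes of the surface molecules and the invariant chain (H2-Aa, H2-Ab1, H2-Eb1 and Cd74), the deviation from their own means averaged -0.02, 0.01 and 0.08 on the CGP arrays and -0.01, -0.01 and -0.05 on the control arrays, so that the groups overlapped. The tested genes with the pattern most like that average over the 6 arrays were Sat1, Fnta, Ntng1, Rtn3 and Kdm5a (Pearson r = 0.972 to 0.983). These are the highest of 16034 correlations over 6 arrays of pooled RNA that were normalised together, and are given as a description. None of the 5 genes passed the test (limma adjusted p = 0.319 to 0.625).

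Genes that act on class II molecules after synthesis did not pass the test either. The list of loading and turnover held 14 symbols, with an old and a new symbol each for Marchf1 and Marchf8, and 12 were found and tested, with 0 higher, 0 lower and a median log2 fold change of -0.03. Their values ran from -0.09 for Ifi30, the thiol reductase that unfolds antigens in endosomes (limma adjusted p = 0.322), to 0.10 for the cathepsin Ctsb (limma adjusted p = 0.276). Ctss, the cathepsin that makes the last cuts in the invariant chain, had a mean of 9.12 ± 0.02 in CGP and 9.17 ± 0.10 in control (mean log2 ± SD, n = 3 arrays each). Its difference was -0.05 (SE 0.06, limma adjusted p = 0.699). Marchf1, a ubiquitin ligase that removes class II molecules from the surface, was under background on all 6 arrays.

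Of 18 regulators of class II transcription, 1 rose and 17 were not called, and the median log2 fold change was 0.02. Values above 0 numbered 11. With limma 6 of the 18, Irf4 included, had an unadjusted p under 0.05, against 19.3% of all tested probe sets. The mean level of the list, Irf4 included, was 8.63 to 8.66 on the CGP arrays and 8.53 to 8.59 on the control arrays. The RFX, NF-Y and CREB factors of the promoter module were among the 17. Rfx5 differed by 0.02, Rfxap by -0.03, Rfxank by -0.05, Nfya by 0.13, Nfyb by -0.06 and Nfyc by 0.02. Creb1 differed by 0.12 (limma adjusted p = 0.238). Among the 17, the groups did not overlap for Nfya, Creb1, Crebbp and Prdm1 (higher in CGP) and for Spi1 (lower). Over all tested probe sets this held for 26.3%. The 1 gene called was Irf4, an interferon regulatory factor that activates immune genes in B cells and dendritic cells and is also expressed by adipocytes. Irf4 read 8.12, 8.13 and 8.05 on the CGP arrays, against 7.30, 7.19 and 7.23 on the control arrays. Every CGP array was above every control array, and the rise of 0.86 (SE 0.05, limma adjusted p = 0.000108) kept its call in all 15 alternatives. The adipocyte markers rose on the same arrays (7 of 8 tested, median 0.49), and their part in the result was not tested.

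Interferon gamma is the main inducer of Ciita outside professional antigen-presenting cells. Of 12 tested genes of its pathway and response, 2 rose, 0 fell and 10 were not called, against 3.53% called over all tested probe sets. The median log2 fold change was 0.10, and 7 of the 12 had a value above 0. With limma 4 of the 12 had an unadjusted p under 0.05, against 19.3% of all tested probe sets. The mean level of the list was 8.28 to 8.34 on the CGP arrays and 8.19 to 8.26 on the control arrays. Gbp7, a guanylate-binding protein, averaged 8.02 ± 0.04 in CGP and 7.59 ± 0.09 in control (mean log2 ± SD, n = 3 arrays each), a rise of 0.43 (SE 0.06, limma adjusted p = 0.00635). Jak1, a kinase of many cytokine receptors, read 10.21, 10.21 and 10.20 on the CGP arrays, against 10.02, 9.88 and 9.97 on the control arrays. The groups did not overlap for either gene. The rise of Jak1 by 0.25 (SE 0.05, limma adjusted p = 0.0391) was lost without any one of the CGP arrays or without control array 2 or 3 (adjusted p up to 0.156), and with the replicate number as a block (adjusted p = 0.144). The rise of Gbp7 held when each array was left out. Against a minimum of 1.2-fold neither passed the test (limma adjusted p = 0.734 for Gbp7 and 1 for Jak1). Cxcl9 (0.17, limma adjusted p = 0.147) and Irf1 (-0.08, limma adjusted p = 0.532), inducible by interferon gamma, were named after their values were seen and did not pass. Ifng itself was under background on all 6 arrays.

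In the class I pathway, which presents peptides from the cytosol to CD8+ T cells, 0 of 11 tested genes were called, and the median log2 fold change was 0.02. B2m, the light chain of class I molecules, differed by 0.07 (SE 0.04, limma adjusted p = 0.429), and Nlrc5, which plays the role for class I genes that Ciita plays for class II, by 0.02 (SE 0.05, limma adjusted p = 0.867). Nlrc5 was above background on all 6 arrays, at means of 10.16 in CGP and 10.14 in control, unlike Ciita. The probe sets of H2-K1 and H2-D1 carry several symbols and were not tested. Of the 6 tested genes between or beside the class II genes (Tap1, Tap2, Psmb8, Psmb9, Brd2 and Btnl2), 0 passed. T cells also need a second signal from the presenting cell, and of 9 listed genes of that costimulation 6 were tested and 0 were called (median -0.10). Of these 6 genes 1 had a value above 0, and their mean level was 7.52 to 7.53 on the CGP arrays and 7.54 to 7.67 on the control arrays. The lowest value was that of Cd83 (-0.17, limma adjusted p = 0.274). Cd40, a receptor that activates presenting cells, differed by -0.14 (SE 0.08, limma adjusted p = 0.393), and Cd80, a ligand for T cells, was under background on all 6 arrays.

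**Figure D3:**
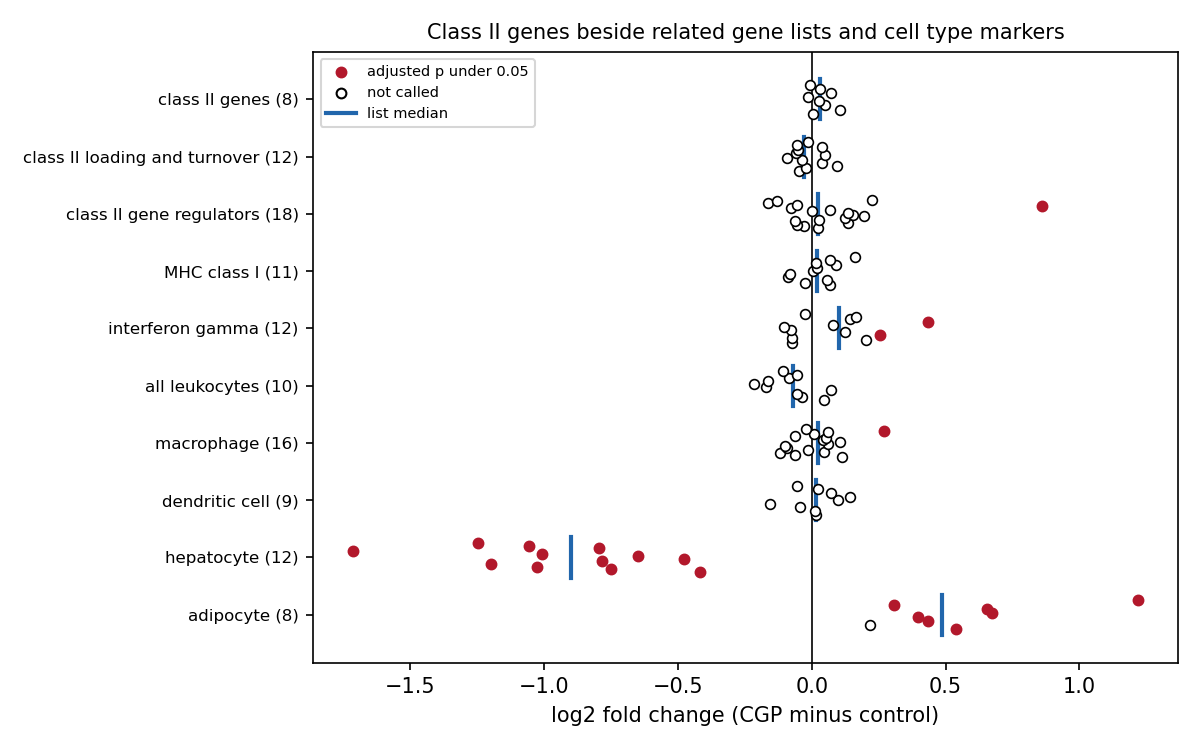
The 8 class II genes and the tested genes of 9 further lists (rows, with the gene number of each) by their CGP minus control difference in log2 expression (horizontal axis), where red points passed limma at an adjusted p under 0.05, white points did not, and a blue bar marks each median. The class II genes lie between -0.02 and 0.10, while every hepatocyte gene (12) is below 0 and every adipocyte gene (8) above it. The lists were chosen with earlier results of these data known.

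RNA was taken from whole adrenals, where fewer cells of a type and less RNA per cell cannot be told apart. The 10 genes listed as leukocyte markers were above background on all 6 arrays. None of the 10 passed the test, and 8 had a value below 0 (median -0.07), with a mean level of 8.64 to 8.73 on the CGP arrays and 8.75 to 8.79 on the control arrays. The extreme was Tyrobp, a signalling adaptor of myeloid cells (-0.22, limma adjusted p = 0.0765), named after its value was seen. Among 16 tested macrophage markers 13 were above background on all arrays, 1 passed the test and the median was 0.02. Of these 16 markers 9 had a value above 0. The lowest value was that of Cd68, with means of 10.05 in CGP and 10.17 in control (-0.12, limma adjusted p = 0.171). The marker that passed was the folate receptor Folr2 (0.27, limma adjusted p = 0.0156). Its means were 6.86 in CGP and 6.59 in control, where only 1 of 3 control arrays was above background. The call of Folr2 was lost in 5 of 14 alternatives. These were the fits without CGP array 2 or 3 or control array 3 (limma adjusted p up to 0.0907), the replicate block (limma adjusted p = 0.117) and the minimum of 1.2-fold. The mean level of the macrophage list was 8.60 to 8.63 on the CGP arrays and 8.56 to 8.62 on the control arrays.

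Of 9 tested dendritic cell markers 0 passed (median 0.02), and 6 were above background on all arrays, among them Itgax (7.15 in CGP and 7.13 in control) and Zbtb46 (7.38 in CGP and 7.42 in control). The mean level of that list was 6.95 to 7.04 on the CGP arrays and 6.89 to 7.09 on the control arrays. Markers of B cells were mostly at background. Of 8 listed, 3 were tested, Pax5 and Blk were under background on all 6 arrays, and Cd79b was above it on all 6, with 0 passing the test. Of 9 T cell markers 5 were tested and 0 passed, with Cd3e (7.44 in CGP and 7.42 in control) and Cd8a above background on all arrays and Cd4 under it on all.

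Adrenal RNA was present in both groups, since the 8 markers of the adrenal cortex and the 7 of the medulla were above background on all 6 arrays. In the test 0 of either list passed. All 8 cortex markers had a value above 0 (median 0.06), with a mean level of 13.27 to 13.32 on the CGP arrays and 13.20 to 13.26 on the control arrays. Of the 7 medulla markers 2 had a value above 0 (median -0.01). All 12 hepatocyte markers were lower in the CGP group (median -0.90, mean level 9.74 to 9.78 on the CGP arrays and 10.68 to 10.70 on the control arrays), and 7 of the 8 tested adipocyte markers were higher (median 0.49, mean level 11.67 to 11.68 on the CGP arrays and 11.09 to 11.14 on the control arrays). Whether cells of either kind carried class II transcripts into these samples was not tested. The lists were chosen with earlier results of these data known, and 3.53% of all tested probe sets passed the test. Arrays within a group were closer than arrays of different groups for most pairs. The standard deviation of the difference over all tested probe sets was 0.103 to 0.128 within CGP, 0.135 to 0.177 within control and 0.160 to 0.218 between the groups.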

How the data were processed

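The authors deposited log2 expression values for 25150 probe sets on 6 Affymetrix arrays. The submitters' processing notes name RMA (background correction, quantile normalisation and summary per probe set) and Partek, without versions, and the genome build is not given in the sources used here. Array medians were 7.94 to 7.96 in CGP and 7.91 to 7.96 in control, with no centring of genes. Groups came from the sample titles. Platform annotation gave 16769 probe sets with 1 gene symbol, 1031 with several and 7350 with none. Tests covered the 16034 single-symbol probe sets that reached a log2 of 6 on 3 or more arrays, whichever the group. The R package limma (version 3.58.1, R version 4.3.3) was used without covariates (lmFit, then eBayes, two-sided), and the code was tested on simulated arrays. P-values were adjusted by Benjamini and Hochberg over all 16034. SE and 95% intervals are the moderated ones of limma. Lists used the brightest probe set of a gene.

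Named were all members, up to 4 called genes per list by smallest adjusted p, and the 5 genes most like the average of 4 members. Other list genes in the text were named after their values were seen. Members and lists were chosen with earlier results of these data known. Correlations of deviations gave no sign of pairing by array number (-0.36, -0.17 and -0.12 for equal numbers, -0.16 to 0.28 for unequal ones). They cannot settle it, since deviations from a mean of 3 arrays depend on each other. Alternatives changed the filter, the probe sets tested, the normalisation, the variance model, array weights, a minimum fold, a block for the array number, and left out each array. Arrays have no read depth, and their number limits the precision. Plots were drawn with matplotlib 3.10.9.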

Additional observations from a re-analysis of the deposited data

How the results depend on the processing

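No class II gene was called in any of the 15 alternatives, with the array number as a replicate block included. The lowest adjusted p was 0.120, for H2-Ab1 with array weights (log2 fold change 0.14), and in 4 of the 15 a single gene had an unadjusted p under 0.05. With a minimum log2 value of 7, 5 of the 8 genes were tested. Of 117 values of the 8 genes under the alternatives, 105 kept their direction, and the largest of the 12 that turned was 0.07 in size. Quantile normalisation gave 0.011 for Ciita and 0.0011 for H2-Oa, median centring gave -0.00215 for H2-Aa, and array weights gave -0.0467 for H2-DMa and 0.00977 for H2-Oa. Leaving out each array in turn gave -0.0487 to 0.0183 for Ciita, -0.0466 to 0.0465 for H2-Aa, -0.0696 to 0.12 for H2-DMa and -0.0396 to 0.011 for H2-Oa, so the sign of these genes was not settled.

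The counts over all probe sets were 311 higher and 255 lower. They were 938 and 727 with array weights, 746 and 515 with a trend and robust prior, 25 and 101 with a minimum of 1.2-fold, 68 and 156 with the replicate block, and between 79 and 612 higher and between 149 and 487 lower when 1 array was left out. Higher calls numbered 164 with all probe sets above the filter, those with several symbols or none included, and 472 with a minimum log2 value of 7. The low signal of Ciita, H2-Oa and H2-Ob against background limits what these arrays can show for them.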
